A study of Mus musculus with 17 samples.

Results

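Mpo, Ela2, Prtn3, Ctsg and Ms4a3 were read as the primary granule genes of sorted mouse bone marrow stem and progenitor cells. Ela2 is the array's older name for Elane, the gene of neutrophil elastase. The members were chosen by name, and every non-control probe carrying 1 of these names was used. Each name had exactly 1 probe, so 5 of the 28090 gene names on the array are described.

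The study sorted 6 populations to follow early blood formation down its myeloid branch. The mRNA was measured on 17 single-color Agilent arrays, 2 of LT-HSC (long-term hematopoietic stem cells) and 3 each of ST-HSC (short-term stem cells), MPP (multipotent progenitors), CMP (common myeloid progenitors), GMP (granulocyte-monocyte progenitors) and MEP (megakaryocyte-erythroid progenitors). No treatment or gene change is given for any group. All cells came from the bone marrow of female C57Bl/6 mice aged 6 to 8 weeks, and 10 to 20 mice went into each replicate. Marrow cells carrying B220, CD3, GR-1 or Ter119 were removed on magnetic columns, and those with c-kit were kept. LT-HSC were then taken as Sca-1 positive, CD34 negative and FLT3 negative, ST-HSC as Sca-1 positive, CD34 positive and FLT3 negative, and MPP as positive for all of these. The myeloid progenitors were Sca-1 negative and were sorted apart from the other gates, CMP with intermediate CD34 and FcRg, GMP with high levels of both and MEP without either. GR-1 is carried by mature granulocytes, and FcRg, by which GMP were gated, is the protein of genes that include Fcgr3. Where CMP, GMP or MEP are set against LT-HSC, ST-HSC or MPP, the sort and the population cannot be told apart. Each population is a gate and holds a mixture of cells, and in such bulk samples fewer cells of a type and less RNA per cell cannot be told apart.

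Primary, or azurophil, granules are the first granules that a developing neutrophil or monocyte fills. Myeloperoxidase, the product of Mpo, makes hypochlorous acid from hydrogen peroxide and chloride. Neutrophil elastase (Ela2), proteinase 3 (Prtn3) and cathepsin G (Ctsg) are related serine proteases that are trimmed to their active form in the granule. Their mRNA is made from the granulocyte-monocyte progenitor to the promyelocyte and is switched off as later granules form, so it marks early granulocyte fate. Ms4a3 encodes a membrane protein of the family of CD20 and is no granule protein, but it is transcribed at the same stage. PU.1, C/EBP factors, Runx1 and Myb are known regulators of these genes.

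The promoters of the members are shown because the levels of the members varied together across the arrays. Promoter sequence from RefSeq (GRCm38.p6, 250 bases before to 50 after the start) was found for 5 of 5 members. Each line is the gene's own strand, 5′ to 3′, over 30 bases, and the capitals mark GGAAGT, a core of the kind that PU.1 and other Ets proteins bind. These letters were chosen after the promoters were seen.
Mpo, chr11:87793550-87793579, plus strand: tggagagagagaGGAAGTtgcctttgtccc
Elane (Ela2), chr10:79886217-79886246, plus strand: gtgtcccagggaGGAAGTagggctgtggcc
Prtn3, chr10:79879562-79879591, plus strand: aaactggaaggaGGAAGTgggacccacagc
Ctsg, chr14:56102762-56102791, minus strand: agaggaagaaaaGGAAGTagtcacctgttt
Ms4a3, chr19:11640889-11640918, minus strand: tggtatacttggGGAAGTgggtgggccatt
GGAAGT, searched on both strands, was in 5 of 5 members and in 23.8% of the 32851 promoters of that table. Counted from the start, it began at -222 in Mpo, -205 in Ctsg, -93 in Prtn3, -83 in Elane and -55 in Ms4a3, and Ms4a3 held it once more on the other strand. The longer GAGGAAGT, which contains it, was in Mpo, Elane and Prtn3 and in 3.20% of all promoters.

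Elane and Prtn3, which lie next to each other, also held AACGG, the core that Myb binds, close to the start. Capitals mark it here.
Elane (Ela2), chr10:79886250-79886279, plus strand: atggggcaatacAACGGcctctggttccag
Prtn3, chr10:79879600-79879629, plus strand: tagccactgttcAACGGctcccggcagagc
AACGG began at -50 in Elane and at -55 in Prtn3. It was in no other member and in 17.4% of all promoters. The Runx letters TGTGGT were in Ctsg alone of the members, against 16.8% of all promoters, and the C/EBP letters TTNNGNAA were in Ms4a3 alone, against 40.7%. GAGGAA, which shares bases with GGAAGT where both overlap, was in 5 of 5 members and in 28.3% of all promoters. A match is only a run of letters and shows no binding.

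The probes, 60 bases long, were placed by the array's annotation on mm9. Mpo was read by A_51_P317460 (NM_010824), at chr11:87617102-87617877. Prtn3 was read by A_51_P209818 (NM_011178), at chr10:79343869-79344685. These spans of 776 and 817 bases are longer than the probe, so both probes cross an intron. Ela2 was read by A_51_P144551 (NM_015779), at chr10:79350763-79350822. Ctsg was read by A_51_P416546 (NM_007800), at chr14:56718795-56718854, and Ms4a3 by A_51_P364210 (NM_133246), at chr19:11704055-11704114, both on the minus strand. An exon and UTR annotation of mm9 was not used here.

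The arrays were of unequal quality. The share of gene spots well above background ran from 41.4% to 70.1%. The unnumbered LT-HSC array was the dimmest, since its 75th percentile of intensity was 53.1 and the next lowest, of the LT-HSC pool, was 243.3. The arrays lay on 6 slides, A to F, and were scanned in 3 runs. A run is here all scans of the same calendar month. Slides C and D, which make up the second run, were scanned on different days. ST-HSC and MPP replicates 2 and 3 shared slide A, slide B held the LT-HSC arrays alone, and CMP, GMP and MEP replicates 1 and 2 shared slides E and F. The unnumbered arrays of GMP, CMP and MPP shared slide C, and those of MEP and ST-HSC shared slide D. Markers of stem cells (7 genes, among them Hlf and Procr) had a summed intensity of 15280 to 16553 in LT-HSC and 225 to 324 in MEP, and erythroid markers (8 genes, among them Klf1 and Gata1) had their highest sums in MEP and their lowest in GMP. All 5 members were well above background on 17 of 17 arrays, and none was marked as saturated. No label says that replicates came from separate sorts, so the p-values measure the spread between these arrays, which may be technical in part.

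The level of all 5 genes was highest in GMP, and differed between populations. Levels are given as quantile-normalized log2 intensities, and the F-test over the 6 populations passed an adjusted p of 0.05 for 5 of 5 members, beside 40.6% of all probes. Its adjusted p was 0.00505 for Mpo, 0.00337 for Ela2, 0.000496 for Prtn3, 0.000355 for Ctsg and 0.000799 for Ms4a3. The genes are not ranked against each other by level, since different probes differ in brightness.

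Mpo, the peroxidase, was bright everywhere. It stood at 18.89, 18.66 and 18.89 in GMP (unnumbered, 1 and 2), 18.78, 17.66 and 18.37 in CMP (in the same order) and 18.13, 17.96 and 18.70 in ST-HSC (2, 3 and unnumbered). It stood at 15.80 and 17.71 in LT-HSC (the pool of replicates 2 and 3, and unnumbered), 15.86, 15.97 and 17.35 in MPP (2, 3 and unnumbered) and 13.63, 15.93 and 16.42 in MEP (unnumbered, 1 and 2). GMP overlapped with CMP and ST-HSC, and lay above every LT-HSC, MPP and MEP array. The raw spot of Mpo was between 75.3% and 96.7% of the scanner's saturation value in GMP and between 45.6% and 78.4% in CMP, so little of the scanner's range lay above the GMP arrays. The GMP arrays at 77.8% (replicate 2) and 96.7% (unnumbered) came out at the same level, since quantile normalization gives spots of equal rank equal levels. Whether either narrowed the difference between GMP and CMP was not tested.

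Ela2, the elastase, had GMP levels of 15.11, 14.18 and 14.21 (unnumbered, 1 and 2), above every array of the other populations. ST-HSC followed, at 12.30, 11.99 and 13.45 (2, 3 and unnumbered), and LT-HSC were at 10.35 (pool) and 12.67 (unnumbered). CMP were at 11.83, 10.14 and 11.27 and MEP at 8.37, 10.47 and 11.01 (each unnumbered, 1 and 2), and MPP at 8.35, 8.18 and 11.16 (2, 3 and unnumbered). All 3 ST-HSC arrays thus lay above all 3 CMP arrays, whereas the CMP, MEP and MPP arrays overlapped.

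Prtn3, the protease encoded next to Ela2, was the tightest in GMP, at 14.37, 14.25 and 14.41 (unnumbered, 1 and 2). CMP, at 11.91, 11.31 and 12.16 in that order, overlapped with ST-HSC, at 11.14, 10.84 and 12.17 (2, 3 and unnumbered). LT-HSC were at 9.20 (pool) and 10.78 (unnumbered), MPP at 8.85, 8.99 and 10.30 (2, 3 and unnumbered) and MEP at 7.67, 10.23 and 10.67 (unnumbered, 1 and 2). The GMP arrays stood apart from all others, the nearest of which was the unnumbered ST-HSC array.

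Ctsg, cathepsin G, stood at 18.48, 17.14 and 17.78 in GMP (unnumbered, 1 and 2), 16.41, 15.24 and 16.09 in CMP in the same order, and 15.98, 15.88 and 16.37 in ST-HSC (2, 3 and unnumbered). LT-HSC were at 12.95 (pool) and 14.79 (unnumbered), MPP at 13.21, 13.03 and 13.89 (2, 3 and unnumbered) and MEP at 10.84, 13.25 and 13.93 (unnumbered, 1 and 2). CMP and ST-HSC overlapped, and LT-HSC, MPP and MEP overlapped below them.

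Ms4a3, the membrane protein gene, followed Ela2 rather than Ctsg in the order of its levels. GMP were at 16.35, 15.47 and 15.51 (unnumbered, 1 and 2) and ST-HSC at 13.84, 13.67 and 14.32 (2, 3 and unnumbered), with no overlap. These were the highest levels of the gene. LT-HSC were at 11.81 (pool) and 13.50 (unnumbered), CMP at 12.76, 11.60 and 12.62 and MEP at 9.32, 11.64 and 12.14 (each unnumbered, 1 and 2), and MPP at 9.75, 9.60 and 12.05 (2, 3 and unnumbered).

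**Figure D1:**
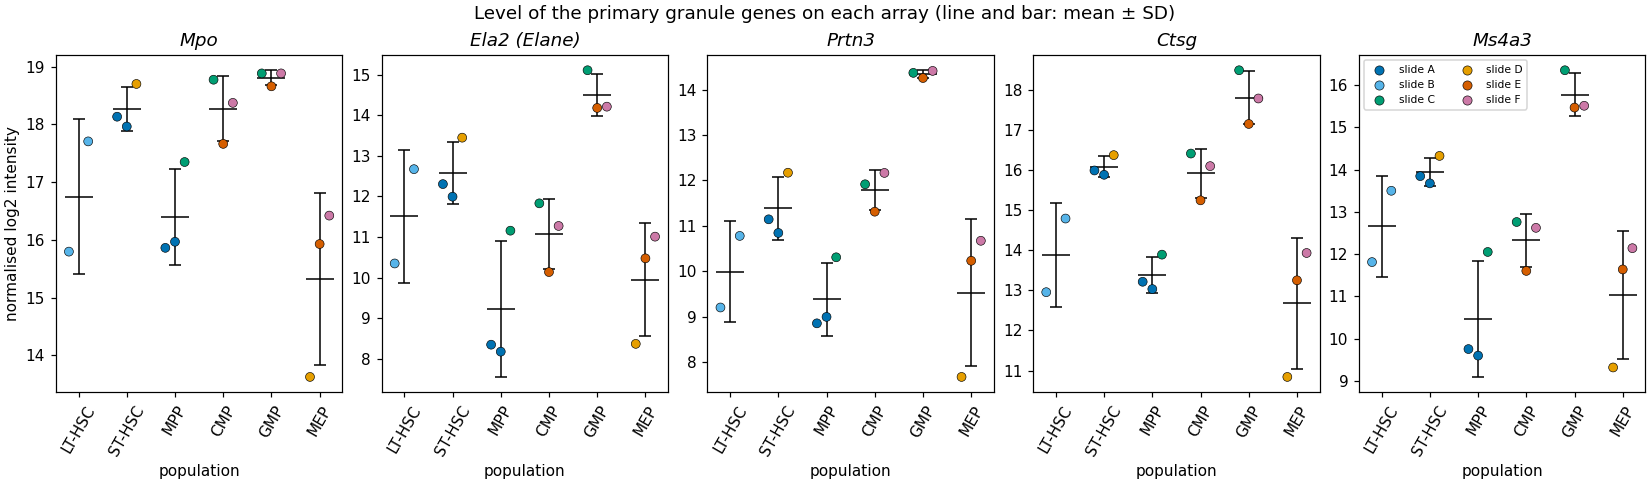
Normalized log2 intensity (y axis) of each gene on each of the 17 arrays, by population (x axis), with points coloured by slide, a line at the mean and a bar for the SD (n = 2 for LT-HSC, n = 3 otherwise). GMP is highest in every panel, ST-HSC lie above MPP without overlap, and the MEP array on slide D lies well below the other MEP arrays.

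The mean levels put the populations in an order that was not the same for every gene. For Mpo the means were 18.81 ± 0.13 in GMP, 18.27 ± 0.56 in CMP, 18.27 ± 0.39 in ST-HSC, 16.75 ± 1.35 in LT-HSC, 16.39 ± 0.83 in MPP and 15.33 ± 1.49 in MEP (SD, n = 2 for LT-HSC and n = 3 for the rest, here and below). For Prtn3 the order was GMP (14.34 ± 0.08), CMP (11.80 ± 0.44), ST-HSC (11.38 ± 0.70), LT-HSC (9.99 ± 1.11), MEP (9.52 ± 1.62) and MPP (9.38 ± 0.80). For Ctsg it was GMP (17.80 ± 0.67), ST-HSC (16.08 ± 0.26), CMP (15.91 ± 0.60), LT-HSC (13.87 ± 1.297), MPP (13.38 ± 0.45) and MEP (12.67 ± 1.62). Ela2 and Ms4a3 had another order, in which both stem cell populations stood above CMP. Ela2 went from GMP (14.50 ± 0.53) to ST-HSC (12.58 ± 0.77), LT-HSC (11.51 ± 1.64), CMP (11.08 ± 0.86), MEP (9.95 ± 1.40) and MPP (9.23 ± 1.67). Ms4a3 went from GMP (15.78 ± 0.50) to ST-HSC (13.95 ± 0.34), LT-HSC (12.65 ± 1.19), CMP (12.33 ± 0.63), MEP (11.03 ± 1.51) and MPP (10.47 ± 1.37). Of the 25 steps between populations next to each other in these orders, limma called 0, and 4 had an unadjusted p under 0.05. The smallest adjusted p of a step was 0.0559, for Prtn3 between GMP and CMP, whose arrays did not overlap (unadjusted p = 0.00279). The other steps with an unadjusted p under 0.05 were GMP to ST-HSC for Ctsg and Ms4a3 and CMP to LT-HSC for Ctsg. The populations were put in order by these same means, so the steps between neighbours are narrow by construction. The count of calls is therefore no result in itself. A step that missed the threshold does not show equal levels.

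GMP against MEP, the granulocyte-monocyte against the erythroid branch, gave the plainest difference among the 6 planned comparisons. All 5 genes were higher in GMP (5 of 5 called, beside 9.56% of all probes called higher), and no GMP array overlapped with a MEP array for any of them, beside 14.2% of all probes higher without overlap. The difference was 5.13 ± 0.69 for Ctsg (log2, SE; adjusted p = 0.000114), 4.82 ± 0.69 for Prtn3 (0.000196), 4.75 ± 0.77 for Ms4a3 (0.00052), 4.55 ± 0.90 for Ela2 (0.00239) and 3.49 ± 0.67 for Mpo (0.00207). The size rested in part on the unnumbered MEP array, although the calls did not. Within the slides that hold both populations the difference was 3.89 and 3.85 for Ctsg, 4.03 and 3.74 for Prtn3, 3.83 and 3.37 for Ms4a3, 3.71 and 3.20 for Ela2 and 2.73 and 2.46 for Mpo (slides E and F). Within the second scanning run, in which the unnumbered GMP and MEP arrays lay on different slides, it was between 5.26 for Mpo and 7.64 for Ctsg. With each array left out in turn all 5 stayed called on 17 of 17 occasions, and the highest adjusted p was 0.0131, for Ela2.

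GMP were also set against MPP. There, too, 5 of 5 members were higher in GMP (beside 12% of all probes), from 2.42 ± 0.67 for Mpo (log2, SE; adjusted p = 0.0199) to 5.31 ± 0.77 for Ms4a3 (0.000292). Against LT-HSC, 4 of 5 were higher (beside 16.4% of all probes), and Mpo, at 2.06 ± 0.75, was not called (0.0576). Against ST-HSC only Prtn3 was called, at 2.96 ± 0.69 (0.00952), beside 11.4% of all probes, and the other 4 were between 0.54 for Mpo and 1.92 for Ela2. MEP were lower than ST-HSC for 4 of 5, all but Prtn3 (adjusted p = 0.0592), beside 12.6% of all probes lower. These pairs were added after the data were seen. They share arrays and are not independent of each other.

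GMP against CMP is the step at which the granulocyte-monocyte branch parts from the common progenitor. Ms4a3 and Ela2 rose, by 3.45 ± 0.77 (log2, SE; 10.9-fold, adjusted p = 0.0191) and 3.42 ± 0.90 (10.7-fold, 0.0463), so 2 of 5 members were called higher, beside 1.84% of all probes. Prtn3 had 2.55 ± 0.69 (0.0559), Ctsg 1.89 ± 0.69 (0.203) and Mpo 0.54 ± 0.67 (adjusted p of 1), and these did not pass. For 4 of the 5, all but Mpo, no GMP array overlapped with a CMP array, beside 10.4% of all probes higher without overlap. On the slides that carry both populations the difference of Ms4a3 was 3.59, 3.87 and 2.89 and that of Ela2 was 3.28, 4.04 and 2.94 (slides C, E and F). Prtn3 had 2.45, 2.94 and 2.25 on these slides, and Ctsg 2.07, 1.90 and 1.68. Mpo had 0.11, 0.998 and 0.51, the smallest difference of the 5 on each slide, so all 5 were higher in GMP on every one of them.

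The calls in this comparison were close to the threshold. Prtn3 was also called with the scanning run as a block (adjusted p = 0.0209) and in the authors' table (0.0208). This makes 3 of 5, beside 3.59% and 2.44% of all probes higher in these fits. With the replicate number as a block Ela2 was lost (0.0504), which leaves Ms4a3 (0.0391) as 1 of 5, beside 2.67% of all probes. With 1 array left out at a time, Ms4a3 stayed called on 13 of 17 occasions, and was lost without CMP replicate 1 or 2 or GMP replicate 2 or the unnumbered GMP array (adjusted p up to 0.0966). Ela2 stayed called on 5 of 17 occasions, with adjusted p up to 0.207, while its difference stayed between 2.95 and 3.80. Without the unnumbered MEP array, 4 of 5 were called, Mpo excepted, beside 2.07% of all probes higher in that fit.

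MEP against CMP is the other exit from the common progenitor. Ctsg fell by 3.24 ± 0.69 (log2, SE; adjusted p = 0.00483), Mpo fell by 2.95 ± 0.67 (0.00761) and Prtn3 fell by 2.27 ± 0.69 (0.0388), so 3 of 5 were lower in MEP, beside 9.43% of all probes. Ela2, at -1.13 ± 0.90 (0.489), and Ms4a3, at -1.297 ± 0.77 (0.325), did not pass, and their MEP and CMP arrays overlapped. The arrays of the other 3 genes did not, beside 14.5% of all probes lower without overlap. Within the first scanning run, with replicates 1 and 2 of both populations, Ela2 was 0.04 and Ms4a3 -0.22, against -1.29 for Prtn3, -1.84 for Mpo and -2.08 for Ctsg. The unnumbered arrays, which share the second run but no slide, gave -3.46 for Ela2, -3.44 for Ms4a3, -4.24 for Prtn3, -5.15 for Mpo and -5.56 for Ctsg. The size of the difference therefore depended on the unnumbered MEP array. Without it the difference was -2.10 for Mpo and -2.32 for Ctsg, both still called, and -1.35 for Prtn3, which was not (adjusted p = 0.133). Prtn3 was called on 8 of 17 occasions with 1 array left out, and was also lost without ST-HSC replicate 2, MPP replicate 3 or any 1 of the CMP or GMP arrays. It was lost with 75th percentile scaling (0.0534) and with the replicate number as a block (0.0583) as well. Mpo and Ctsg stayed called on 17 of 17 occasions.

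**Figure D2:**
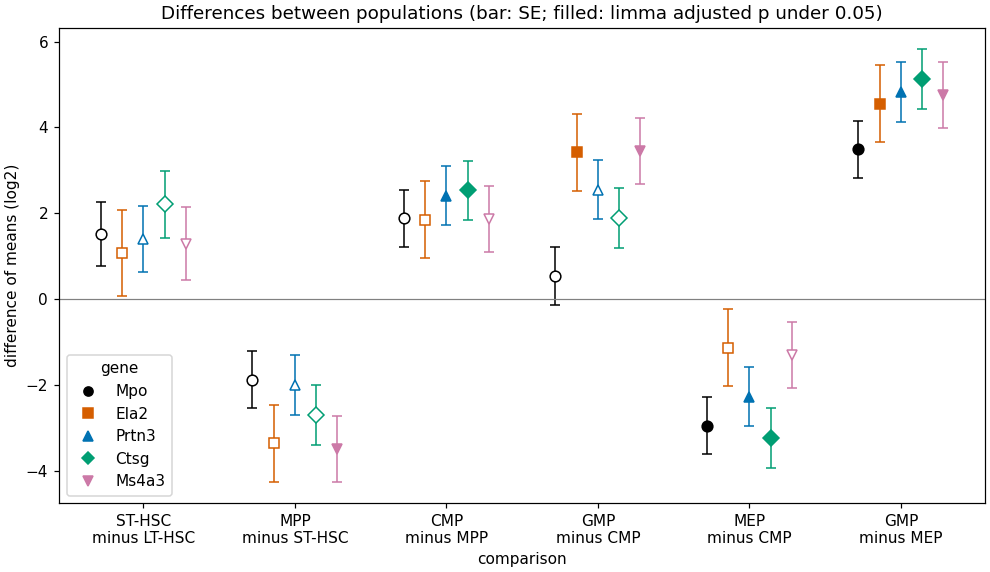
Difference of population means (y axis, log2) for each gene in 6 comparisons (x axis), with the SE from limma as bars; filled points have an adjusted p under 0.05. All 5 points are filled for GMP minus MEP and none for ST-HSC minus LT-HSC, and Ela2 and Ms4a3 lie nearest to 0 for MEP minus CMP and farthest from it for GMP minus CMP.

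The next step goes from the short-term stem cells to the multipotent progenitors. All 5 genes had a lower mean in MPP than in ST-HSC, with no overlap between the arrays, beside 6.48% of all probes lower without overlap. Ms4a3 fell by 3.48 ± 0.77 (log2, SE; 11.2-fold, adjusted p = 0.0326) and was the only member called, so 1 of 5, beside 0.874% of all probes lower. Ela2 had -3.36 ± 0.90 (0.0936), Ctsg -2.70 ± 0.69 (0.0770), Prtn3 -2.001 ± 0.69 (0.274) and Mpo -1.87 ± 0.67 (0.308). On slide A, with 2 arrays of each population, the difference was -4.09 for Ms4a3, -3.89 for Ela2, -2.81 for Ctsg, -2.13 for Mpo and -2.07 for Prtn3. The unnumbered arrays of the second run, on different slides, gave -2.27, -2.29, -2.48, -1.35 and -1.86 in the same order. With the scanning run as a block Ela2 was called as well as Ms4a3 (beside 1.64% of all probes lower), and with the scanning day as a block, an alternative added after the data were seen, 5 of 5 were called (beside 1.44%). With the replicate number as a block 0 of 5 were called by limma (beside 1.26% of all probes lower), and Ms4a3 had an adjusted p of 0.0663. With 1 array left out at a time, Ms4a3 stayed called on 11 of 17 occasions, and was lost without any 1 of the ST-HSC arrays, MPP replicate 2 or 3, or CMP replicate 2 (adjusted p up to 0.162).

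Between LT-HSC and ST-HSC 0 of 5 members were called by limma, beside 0.852% of all probes called higher, and only Ctsg had an unadjusted p under 0.05. All 5 had the higher mean in ST-HSC, by 1.07 ± 1.002 for Ela2 (log2, SE; adjusted p = 0.658) to 2.21 ± 0.77 for Ctsg (0.149). For 4 of the 5, all but Ela2, the arrays did not overlap, beside 13.7% of all probes higher without overlap. The LT-HSC arrays differed from each other by 1.58 for Prtn3 to 2.32 for Ela2. The raw spots of the 2 arrays were alike for Mpo, at 6.54% and 6.57% of the saturation value, and normalization raised the dimmer, unnumbered array above the pool. Without the pool, the difference of Ela2 turned to -0.09, and those of Mpo (0.56), Prtn3 (0.61), Ms4a3 (0.45) and Ctsg (1.29) shrank. Without the unnumbered array they were 2.23, 2.47, 2.18, 2.14 and 3.12 in the same order. The LT-HSC arrays sat alone on their slide, so the slide and the population cannot be told apart there, although the scanning run was shared with ST-HSC and MPP replicates 2 and 3. Within that run the difference was between 0.64 for Ela2 and 2.06 for Ctsg.

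Markers of other cells also differed between the populations, some along with the members and some not. Late neutrophil granule markers (10 genes, among them S100a9 and Camp) had a summed intensity of 417646 to 726198 in LT-HSC, 296368 to 630299 in ST-HSC, 84805 to 312966 in MPP, 41123 to 116372 in CMP, 57233 to 249582 in GMP and 94474 to 196239 in MEP. Of this list limma called 0 of 10 between ST-HSC and MPP, where 4 had an unadjusted p under 0.05, and 0 of 10 between GMP and CMP, where none had. The list had its highest sums in LT-HSC, and its median difference of MEP minus CMP was 1.08 (log2), with 0 of 10 called by limma and 3 with an unadjusted p under 0.05, of which 2 were higher in MEP and 1 was lower. On each array 9 or 10 of the 10 were well above background. Markers of eosinophils, basophils and mast cells (8 genes, among them Mcpt8 and Prss34) summed to 7442 to 19957 in LT-HSC, 45632 to 75352 in ST-HSC, 7954 to 35300 in MPP, 15657 to 39197 in CMP, 176934 to 513382 in GMP and 6159 to 59073 in MEP. Of these, 7 of 8 were called higher in GMP than in CMP (beside 2.06% of all gene names), and 3 of 8 lower in MPP than in ST-HSC (beside 1.09%). In ST-HSC 4 of 8 were higher than in LT-HSC (beside 0.862%), and in CMP 1 of 8 was higher than in MPP (beside 5.75%). In MEP 3 of 8 were lower than in CMP (beside 10.4%), and in GMP 8 of 8 were higher than in MEP (beside 10.3%). Fcgr3, of the GMP gate, was at 10.77 ± 0.24 in ST-HSC, 7.66 ± 1.09 in MPP, 9.78 ± 0.63 in CMP and 13.61 ± 0.18 in GMP (log2, SD, n = 3). The mRNA of the other gating proteins did not always follow the gate. Ly6a (Sca-1) was at 8.88 ± 0.79 in ST-HSC, gated as positive, and at 7.15 ± 0.71 in CMP and 9.71 ± 0.67 in GMP, gated as negative, and was called higher in GMP than in CMP (2.55, adjusted p = 0.0110). Cd34 was at 14.96 ± 0.20 (n = 2) in LT-HSC, gated as negative, and at 14.29 ± 0.23 in GMP, gated as high. B cell markers (7 genes, among them Igh-6 and Vpreb1) summed to 40870 to 74332 in LT-HSC, 6863 to 9232 in ST-HSC, 37712 to 41901 in MPP, 28503 to 31459 in CMP, 11944 to 14705 in GMP and 1788 to 4266 in MEP. Monocyte markers (7 genes, among them Csf1r and Mpeg1) summed to 9901 to 13011 in ST-HSC and 14369 to 21043 in MPP, where 2 of 7 were called lower (beside 1.09% of all gene names) and 1, Mpeg1, higher (beside 1.37%). They were higher in ST-HSC than in LT-HSC for 2 of 7 (beside 0.862%), higher in GMP than in CMP for 2 of 7 (beside 2.06%), higher in CMP than in MPP for 3 of 7 (beside 5.75%), lower in MEP than in CMP for 6 of 7 (beside 10.4%) and higher in GMP than in MEP for 7 of 7 (beside 10.3%). Erythroid markers summed to 30365 to 44887 in LT-HSC, 12447 to 25450 in ST-HSC, 7532 to 16156 in MPP, 8356 to 18242 in CMP, 1134 to 2470 in GMP and 77814 to 106509 in MEP. Of these, 4 of 8 were called lower in MPP than in ST-HSC (beside 1.09% of all gene names), and 5 of 8 were called higher in CMP than in MPP (beside 5.75%). These are the directions of the members in those steps, whereas 1 of 8 was called lower in CMP than in MPP (beside 6.51%), against the members. The erythroid list also went the other way from the members in GMP, where 4 of 8 were lower than in CMP (beside 3.43%), and in MEP, where 8 of 8 were higher than in CMP (beside 7.45%). The part of these other cells in the levels of the members was not tested.

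CMP against MPP completes the path, across the 2 sorts. Replicates 1 and 2 of CMP and replicates 2 and 3 of MPP were also scanned in different runs, on different scanner models. Ctsg rose by 2.54 ± 0.69 (log2, SE; 5.80-fold, adjusted p = 0.0318) and Prtn3 by 2.41 ± 0.69 (5.33-fold, 0.0391), so 2 of 5 were called, beside 6.75% of all probes higher. Mpo had 1.88 ± 0.67 (0.0867), Ms4a3 1.86 ± 0.77 (0.131) and Ela2 1.85 ± 0.90 (0.197). The arrays did not overlap for Mpo, Prtn3 and Ctsg, so for 3 of 5, beside 18.1% of all probes higher without overlap. This result depended on the arrays. With the scanning run as a block 0 of 5 were called by limma, beside 1.57% of all probes higher in that fit, and the differences were 1.92 for Ctsg, 0.99 for Prtn3, 0.81 for Mpo, 0.65 for Ms4a3 and 0.38 for Ela2. With the scanning day they were 1.67, 0.80, 0.58, 0.35 and 0.09. Without the unnumbered MPP array 5 of 5 were called, beside 9.19% of all probes higher in that fit. On slide C, the only one with both populations, the difference was 2.52 for Ctsg, 1.61 for Prtn3, 1.43 for Mpo, 0.71 for Ms4a3 and 0.67 for Ela2. With 1 array left out at a time, Ctsg stayed called on 12 of 17 occasions and Prtn3 on 9. Both were lost without MPP replicate 2 or 3 or any 1 of the CMP arrays, and Prtn3 also without any 1 of the GMP arrays. The adjusted p reached 0.115 for Ctsg and 0.158 for Prtn3.

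The 5 genes moved together from array to array, also within a population. On the unnumbered MEP array all 5 lay between 1.58 and 1.85 below their MEP mean (log2), and on MEP replicate 2 between 1.06 and 1.26 above it. On the unnumbered MPP array they lay between 0.51 (Ctsg) and 1.93 (Ela2) above the MPP mean, and on CMP replicate 1 between 0.49 (Prtn3) and 0.94 (Ela2) below the CMP mean. The deviations from the population mean had a Pearson correlation between 0.86 (Ela2 and Ctsg) and 0.98 (Ela2 and Ms4a3) over the 17 arrays. Deviations within a population sum to 0, so the 17 arrays do not give 17 independent values. The correlations were not set beside those of other probes. The arrays share their depth, slide and pool of mice in all of these pairs. The same arrays also differed in the markers of other cells. The summed eosinophil, basophil and mast cell markers were 35300 on the unnumbered MPP array against 13149 and 7954 on the others, and 6159 on the unnumbered MEP array against 51144 and 59073. Late neutrophil markers were 312966 on the unnumbered MPP array against 84805 and 89393, and 94474 on the unnumbered MEP array against 177296 and 196239. Other lists did not go the same way. Monocyte markers were 1548 on the unnumbered MEP array against 1328 and 1705, and 14369 on the unnumbered MPP array against 18661 and 21043. The part of other cells in the deviations was not tested.

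**Figure D3:**
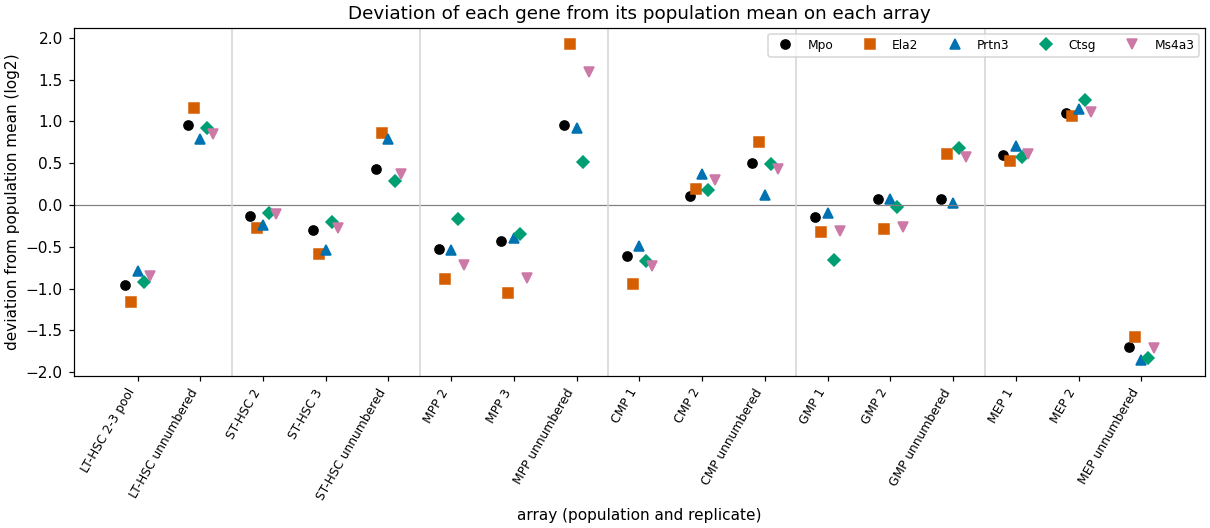
Deviation of each gene from its own population mean (y axis, log2) on each of the 17 arrays (x axis, in blocks by population). The 5 genes lie on the same side of 0 on 16 of the 17 arrays, and lowest on the unnumbered MEP array.

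Over the levels themselves, Ela2 and Ms4a3 were the closest of the members. Ela2 and Ms4a3, on different chromosomes, had r = 0.99 over the 17 arrays, and each was the gene most like the other among 13491 gene names with a probe well above background on all GMP arrays. Mpo and Ctsg had r = 0.96, and Ctsg was the gene most like Mpo. Prtn3 was nearest to Ctsg (r = 0.95), followed by Ms4a3 (0.92), Ela2 (0.91) and Mpo (0.88), which stood at ranks 13, 61, 68 and 113 in its list. Within each array, the level of Ela2 minus that of Prtn3 was 1.16, 1.15 and 1.28 in ST-HSC (2, 3 and unnumbered) and -0.08, -1.17 and -0.89 in CMP (unnumbered, 1 and 2), and had a mean of 0.16 ± 0.51 in GMP (SD, n = 3). The brightness of each probe is common to both groups, so only the change between populations is read. These values were picked after the data were seen and are given as a description.

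Outside the members, Hdc, the gene of histidine decarboxylase, which makes histamine, was the most alike, with r = 0.98 to the mean centred level of the 5 members over the 17 arrays. It was followed by Igsf6 (r = 0.97), Mtus1 (0.97), Fcgr3 (0.96), Hvcn1 (0.96), Anxa3 (0.96), Gpc1 (0.96) and Mefv (0.96), among 13487 gene names. Hdc had a mean of 14.57 ± 0.17 in GMP and 12.48 ± 0.05 in ST-HSC, against 11.21 ± 0.48 in CMP and 9.21 ± 1.06 in MPP (log2, SD, n = 3). Fcgr3 encodes an Fc receptor of the kind used to gate GMP, Hvcn1 a proton channel and Mefv pyrin, an inflammasome protein. The list itself varied, since 5 of the 8 were also among the first 8 without the LT-HSC arrays and 2 of the 8 were when the 6 population means were used.

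**Figure D4:**
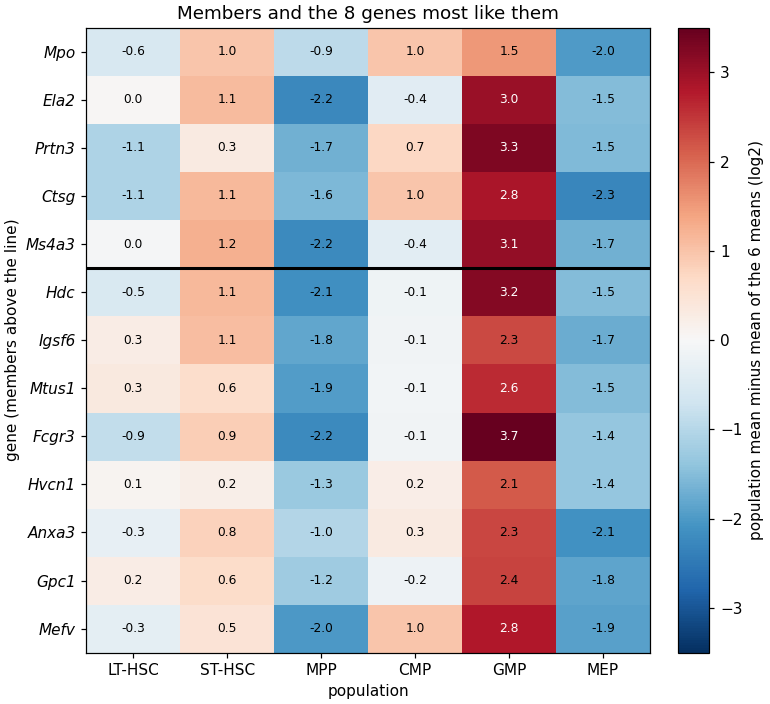
Population mean minus the mean of the 6 population means (colour and number, log2) for the 5 members, above the line, and the 8 genes with the most similar pattern, below it. All 13 genes are highest in GMP and lowest in MPP or MEP. For the 8 this largely follows from how they were picked. Ela2, Ms4a3, Hdc and Igsf6 share a value below 0 in CMP with a value above 1 in ST-HSC.

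Other genes of azurophil granules were followed as a list of 17, of contents, processing enzymes and sorting factors. Between GMP and CMP 5 of the 17 were higher and none lower, with a median of 1.22 (log2), beside 2.06% higher and a median of 0.04 over all gene names. Those with the largest rise were Prss57 (2.57 ± 0.46, SE; adjusted p = 0.00539), a further serine protease of these granules, Arsb (2.39 ± 0.25; 0.000115), the lysosomal arylsulfatase B, Cd63 (2.01 ± 0.41; 0.0123), a granule membrane protein, and Ctsc (1.47 ± 0.31; 0.0136), the protease that activates elastase, proteinase 3 and cathepsin G. Lyst, whose loss gives giant granules, was the fifth. Between GMP and MEP 13 of 17 were higher (beside 10.3% of all gene names), and between MEP and CMP 9 of 17 were lower (beside 10.4%). Between MPP and ST-HSC limma called 0 of the 17. An unadjusted p under 0.05 was found for 4, of which Slpi (an elastase inhibitor), Srgn (the granule proteoglycan serglycin) and Cd63 had the lower mean in MPP and Lyst the higher. Bpi was not well above background on any array. With the scanning run as a block, 10 of 17 were higher in GMP than in CMP (beside 3.88% of all gene names in the same fit) and 10 lower in MEP than in CMP (beside 13.4%). With 75th percentile scaling, 9 were higher in GMP than in CMP (beside 1.79%) and 7 lower in MEP (beside 9.20%). Without the unnumbered MEP array these counts were 7 (beside 2.33%) and 7 (beside 9.64%), and 2 of 17 were lower in MPP than in ST-HSC (beside 1.16%), where the scanning run as a block gave 1 (beside 1.97%).

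A list of regulators, which also holds the receptor gene Csf3r, was read in the same way, and 9 of 10 were found on the array. Gfi1, a repressor needed for granulocyte formation, rose by 2.75 ± 0.42 (log2, SE; adjusted p = 0.00162) from CMP to GMP, and Cebpb by 1.51 ± 0.33 (0.0162), so 2 of 9 were higher, beside 2.06% of all gene names. From MPP to CMP the same genes fell, Cebpb by 2.12 (0.00146) and Gfi1 by 1.42 (0.0416), so 2 of 9 were lower (beside 6.51%) and 1, Runx1, was higher (beside 5.75%). With the scanning run as a block 1 of 9 was lower (beside 2.59% in the same fit) and none higher in that step. Cebpb was at 12.53 ± 0.31 in GMP, with a lower mean than in ST-HSC, LT-HSC (13.33 ± 0.07) and MPP (13.14 ± 0.52). Cebpa, the factor required to form GMP, was at 10.22 ± 0.42 in CMP and 11.59 ± 0.34 in GMP (SD, n = 3; adjusted p = 0.134). Sfpi1 (PU.1), Myb, Runx1, Cbfb, Irf8 and Csf3r did not pass in that step. Between GMP and MEP 8 of 9 were higher, all but Myb (beside 10.3% of all gene names), and between MEP and CMP 6 of 9 were lower (beside 10.4%). Between ST-HSC and MPP, where 1 of the 5 members, Ms4a3, was called lower, none of the 9 was lower in MPP (beside 1.09% of all gene names). Irf8 was higher in MPP (beside 1.37%), by 2.06 ± 0.43 (0.0250). With the scanning run as a block, or without the unnumbered MEP array, 4 of 9 were higher in GMP than in CMP (beside 3.88% and 2.33% of all gene names).

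The genes beside the members in the genome were read in the same comparisons, in which 2.06% of all gene names were higher in GMP than in CMP and 10.3% higher in GMP than in MEP. Next to Mpo, Epx, the eosinophil peroxidase, rose by 3.82 ± 1.01 (log2, SE; adjusted p = 0.0482) from CMP to GMP, whereas Lpo, the lactoperoxidase, had 0.47 (0.933). Around Ela2 and Prtn3, Cfd, the gene of complement factor D, rose by 2.77 ± 0.37 (0.000669) and Prss57, as above, rose as well, so 2 of the 4 neighbours were called higher, and Palm and Med16 were not. Between GMP and MEP 3 of the 4 were higher, all but Med16. Around Ctsg, where granzymes and mast cell proteases are clustered, Mcpt8 rose by 4.70 ± 0.59 (0.000452) and Cma1 by 2.71 ± 0.43 (0.00229), so 2 of 14 were higher. Of these 14, 7 were not well above background on any array, so their failure to pass says nothing of their pattern. Between GMP and MEP 3 of 14 were higher. Around Ms4a3 only Ms4a2, a chain of the IgE receptor, rose, by 3.00 ± 0.46 (0.00177), so 1 of 13 was higher, whereas 7 of 13 were higher in GMP than in MEP. In MPP, 4 of 14 around Ctsg, 3 of 13 around Ms4a3, 1 of 4 around Ela2 and Prtn3 and 0 of 2 around Mpo were lower than in ST-HSC. This stands beside 1.09% of all gene names. In ST-HSC, 2 of 14 around Ctsg and 3 of 13 around Ms4a3 were higher than in LT-HSC (beside 0.862%), and 1 of 13 around Ms4a3 was lower (beside 2.93%). Mcpt8, Epx and Ms4a2 also stand in the list of eosinophil, basophil and mast cell markers.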

How the data were processed

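Scanner files deposited by the authors held spot intensities, corrected for background by Agilent Feature Extraction 9.5.3.1 or 10.2.1.3 and not normalized across arrays. A second table of the authors held log2 values and served as an alternative, matched to the spots by their order (Spearman correlation of 1 with the median intensity on each array). Gene names and mm9 positions are those of the scanner files.

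Here log2 intensities of the 17 arrays were brought to a common distribution (quantile method) in limma 3.58.1 (R 4.3.3), as the methods state. The 1639 control spots and outlier spots were left out, and spots of a probe were averaged, giving 41174 probes with 161 missing values, none in a member. A model with 1 mean per population was fitted by lmFit and eBayes, with Benjamini-Hochberg adjustment over all probes at 0.05. Fold changes are on the log2 scale. Intensities bear no read depth, and the number of arrays limits the precision. The fit was tested on simulated data.

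The members and lists were chosen with earlier results of these data known. The rule was to name at most 4 genes of each list, those called with the largest difference between GMP and CMP, and at most 2 examples of each marker list. For lists, a gene name was read by its brightest probe. Genes named beyond this rule (Lyst, Slpi, Srgn, Bpi, Lpo, Ly6a, Cd34, Palm, Med16 and the regulators other than Gfi1 and Cebpb) were chosen after their values were seen. Elane was found as Ela2, Spi1 as Sfpi1, Prss57 as Prssl1 and Ighm as Igh-6. Cebpe was not found by name. Alternatives were 75th percentile scaling, normexp background correction (offset 50), the authors' table, dim probes left out (well above background on fewer than 2 arrays), a block for scanning run or for replicate number, a random block for slide, 1 value per gene name, the fit without LT-HSC, and leaving out 1 array at a time. The block for replicate number takes all unnumbered arrays as 1 block. A block for scanning day was added after the data were seen. Figures and motif counts were made with Python 3.11.15.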

Additional observations from a re-analysis of the deposited data

How the results depend on the processing

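Of 835 values of single members under the alternatives, 746 kept their direction and side of the threshold, 57 were no longer called, 31 became called and 1, the difference of Ela2 between ST-HSC and LT-HSC without the LT-HSC pool (-0.09), turned its sign, where leaving out 1 array at a time gave up to 2.23. The calls of GMP against MEP and of the F-test held for 5 of 5 members under every alternative run. No member needed a lower bound, so the alternative floor for bounds was not run. The cause of the changes below was not tested.

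Over all probes, ST-HSC minus LT-HSC had 1375 calls, against 684 with 75th percentile scaling, 808 with dim probes left out, 3629 with the scanning run, 3243 with the scanning day and 6993 with the replicate number as a block, and 502 with the slide as a random block. MPP minus ST-HSC had 833, against 1505, 1400, 1254 and 1299 with run, day, replicate block and slide. CMP minus MPP had 4998, against 1535, 1393 and 3223 with run, day and slide and 3244 of 28090 gene names with the mean of all probes of each. GMP minus CMP had 1962, against 3437, 3313 and 3034 with run, day and slide. MEP minus CMP had 6863, against 10537 with the run. With 1 array left out the counts ran from 760 to 4748 for ST-HSC minus LT-HSC, 492 to 955 for MPP minus ST-HSC, 1773 to 7572 for CMP minus MPP, 1120 to 2204 for GMP minus CMP, 5143 to 7450 for MEP minus CMP, 5913 to 7695 for GMP minus MEP and 14589 to 18831 for the F-test.

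Of the 5 members, MPP minus ST-HSC called 1 lower (beside 0.874% of all probes). It called 2 with 75th percentile scaling (beside 0.811%), normexp (0.969%), the authors' table (1.04%) or the run (1.64%). The day gave 5 (1.44%), the slide 3 (1.40%) and the replicate block 0 (1.26%). CMP minus MPP called 2 higher (beside 6.75%), against 1 with 75th percentile scaling (3.72%). It called 0 with run (1.57%), day (1.39%), slide (3.84%) or replicate block (5.48%). GMP minus CMP called 2, against 1 with the replicate block and 3 with 75th percentile scaling, normexp, the authors' table, dim probes left out, run, day, slide, the brightest probe of each gene name or no LT-HSC arrays. With 1 array left out the number ran from 0 to 1 for ST-HSC minus LT-HSC. The 1 was Ctsg, without the unnumbered MEP array (beside 0.95% of all probes higher). The number ran from 0 to 2 for MPP minus ST-HSC, 0 to 5 for CMP minus MPP and 0 to 4 for GMP minus CMP. For MEP minus CMP it ran from 2 to 3, and for GMP minus MEP and the F-test it was 5 throughout. Where both LT-HSC arrays were kept, these fits called 0.483% to 0.937% of all probes lower for MPP minus ST-HSC. They called 1.94% to 9.19% higher for CMP minus MPP, 0.848% to 2.07% higher for GMP minus CMP and 8.16% to 9.79% higher for GMP minus MEP. For MEP minus CMP they called 7.68% to 9.69% lower. The replicate block pairs numbered arrays by number only. It takes all unnumbered arrays, across their slides, as 1 block. The LT-HSC pool is a block of its own, so LT-HSC rest on 1 array in that fit. Over the probes well above background on every array, arrays of the same number and slide deviated together (r from 0.30 to 0.73). Those of the same number on different slides did not (r from -0.11 to -0.03). Each pair of populations shares at most 2 numbers.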
